A study of Homo sapiens with 12 samples.

Results

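Long intergenic non-coding genes carry the symbol LINC and a number when no better name is known for them. All gene symbols made of LINC followed by digits alone were taken, which gave 2104 genes of 60583 in the tables (3.47%). Their nascent transcription was followed by TT-seq in U2OS, a human osteosarcoma line, and in U2OS-AsiSI, a derivative with the restriction nuclease AsiSI fused to ER, a fusion that OHT (hydroxytamoxifen) brings into the nucleus, where it cuts DNA. Both lines were transfected with a control siRNA (siCtrl) or with an siRNA to INTS11 (siINTS11) and collected at 48 hours, with 3 libraries in each of the 4 groups. The U2OS-AsiSI cells, siCtrl and siINTS11 alike, had OHT for 1 hour, and no such treatment is labelled for U2OS, so line, nuclease and OHT cannot be told apart where the lines are compared. The labels do not say whether the replicates were separate cultures, and p-values then measure only the spread between these libraries. INTS11 itself had 284, 351 and 269 reads under siCtrl and 258, 212 and 277 under siINTS11 in U2OS-AsiSI, and its difference did not pass the test there (log2 fold change -0.13, adjusted p = 0.172). In U2OS it was called lower (log2 fold change -0.42, adjusted p = 6.08e-05), from 277, 314 and 286 to 260, 216 and 225 reads. These are reads of newly made RNA over the whole span, and they do not show how much INTS11 mRNA or protein was left. The knockdown is thus not judged from them, and below siINTS11 means the libraries labelled siINTS11.

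INTS11 is the RNA endonuclease of Integrator, a complex that binds RNA polymerase II early in transcription, cuts the nascent RNA and can end transcription there. Integrator also forms the ends of small nuclear RNAs and of enhancer RNAs. Long non-coding RNAs are made by RNA polymerase II from promoters of their own, are often poorly spliced, short-lived and low in steady-state RNA, and are therefore seen better in newly made RNA. The name LINC is a catalogue entry and covers unrelated genes, some host transcripts of microRNAs and some with a reported part in tumour cells, and many with no known function. The study's stated subject is the effect of Integrator on the processivity of the polymerase.

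The starts of these genes are shown first, because transcription of each begins there and short motifs known from promoters can be read in them. RefSeq promoter windows (GRCh38.p14, 250 bases before to 50 after the start) were found for 1378 of the 2104 symbols, and for 1074 the RefSeq start lay within 1000 bases of the start in the tables. Windows of 2 genes that rose, 2 that fell and 1 whose response differed between the lines are printed 5′ to 3′ on the gene's strand. Those of 3 further genes follow, chosen because they rose and hold TGACTCA. Capitals mark every match on either strand to the 4 motifs searched, none of which contains another. TATAAA is the core of the TATA box. CCAAT is bound by the factor NF-Y. GGGCGG is the GC box. TGACTCA is the sequence that AP-1, the dimer of Fos and Jun proteins, is known to bind.
LINC02863: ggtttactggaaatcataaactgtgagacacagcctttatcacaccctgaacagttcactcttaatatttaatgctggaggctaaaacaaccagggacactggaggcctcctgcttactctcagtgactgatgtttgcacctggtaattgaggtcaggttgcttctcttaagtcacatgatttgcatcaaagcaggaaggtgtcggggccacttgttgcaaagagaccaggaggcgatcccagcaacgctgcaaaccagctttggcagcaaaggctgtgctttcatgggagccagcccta
LINC02541: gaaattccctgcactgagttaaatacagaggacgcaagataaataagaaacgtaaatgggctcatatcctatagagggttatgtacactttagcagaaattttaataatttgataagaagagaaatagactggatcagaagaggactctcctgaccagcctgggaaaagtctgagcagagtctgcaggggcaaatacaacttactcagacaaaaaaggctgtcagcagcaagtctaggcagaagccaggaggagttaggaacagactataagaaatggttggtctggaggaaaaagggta
LINC01170: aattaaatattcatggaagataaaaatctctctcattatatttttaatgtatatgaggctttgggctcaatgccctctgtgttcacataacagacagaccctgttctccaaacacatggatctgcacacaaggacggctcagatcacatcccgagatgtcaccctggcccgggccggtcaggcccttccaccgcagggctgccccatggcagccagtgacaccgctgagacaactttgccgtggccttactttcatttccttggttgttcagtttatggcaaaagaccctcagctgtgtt
LINC00222: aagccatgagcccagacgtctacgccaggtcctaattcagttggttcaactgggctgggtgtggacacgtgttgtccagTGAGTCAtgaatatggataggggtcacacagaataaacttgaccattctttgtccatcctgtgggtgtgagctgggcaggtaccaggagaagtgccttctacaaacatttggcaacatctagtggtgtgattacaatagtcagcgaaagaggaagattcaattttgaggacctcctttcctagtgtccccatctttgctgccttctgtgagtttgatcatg
LINC01173: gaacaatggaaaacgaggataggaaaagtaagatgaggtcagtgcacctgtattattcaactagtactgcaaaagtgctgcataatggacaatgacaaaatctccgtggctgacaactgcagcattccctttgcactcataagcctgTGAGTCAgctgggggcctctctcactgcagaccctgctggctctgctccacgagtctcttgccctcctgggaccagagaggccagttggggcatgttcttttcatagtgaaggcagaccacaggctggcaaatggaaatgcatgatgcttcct
LINC02725: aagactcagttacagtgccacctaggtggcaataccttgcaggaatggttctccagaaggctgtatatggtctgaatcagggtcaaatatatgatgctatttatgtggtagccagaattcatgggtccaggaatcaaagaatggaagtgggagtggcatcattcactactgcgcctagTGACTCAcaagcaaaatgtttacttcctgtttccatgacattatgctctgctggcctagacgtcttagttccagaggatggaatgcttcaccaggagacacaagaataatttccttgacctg
LINC00601: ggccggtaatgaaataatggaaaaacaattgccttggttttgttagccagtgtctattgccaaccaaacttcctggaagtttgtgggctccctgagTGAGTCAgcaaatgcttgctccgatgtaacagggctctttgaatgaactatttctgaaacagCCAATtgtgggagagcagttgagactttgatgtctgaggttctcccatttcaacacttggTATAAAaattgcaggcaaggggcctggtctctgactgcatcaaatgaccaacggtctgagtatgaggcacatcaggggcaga
LINC02320: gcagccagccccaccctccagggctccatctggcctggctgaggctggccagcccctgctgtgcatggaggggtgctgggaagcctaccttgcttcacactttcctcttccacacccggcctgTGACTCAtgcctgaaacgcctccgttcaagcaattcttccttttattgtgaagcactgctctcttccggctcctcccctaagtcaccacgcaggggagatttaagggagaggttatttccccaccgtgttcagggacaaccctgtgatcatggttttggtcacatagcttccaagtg
The first of these windows is chr5:132427368-132427667 on the minus strand, and its start lies 703 bases from the start of LINC02863 in the tables, against at most 198 bases for the other 7. The others, in the order printed, are chr6:113650026-113650325 (minus), chr5:124438471-124438770 (minus), chr6:108751404-108751703 (plus), chr2:234682418-234682717 (plus), chr11:128095509-128095808 (plus), chr10:126421830-126422129 (minus) and chr14:101731257-101731556 (minus). LINC00601 has the most marks, with TATAAA starting 32 bases before the start, CCAAT 92 bases before it and TGACTCA 154 bases before it on the other strand. In LINC02863, LINC02541 and LINC01170 no letters are marked.

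LINC promoters were poor in G, C and CpG compared with promoters in general. The median window of these 1074 LINC genes had 47.7% G and C and 4 CpG, against 58.7% and 14 in all 35116 windows of the table. GGGCGG was in 18.6% of LINC windows and in 45.0% of all windows, TATAAA in 16.7% and 11.5%, and CCAAT in 36.1% and 34.6%. TGACTCA was in 8.0% of LINC windows against 4.9% of all. It was in 18 of 95 windows (18.9%) of LINC genes that were at least 2-fold higher under siINTS11 in U2OS-AsiSI. Over all LINC genes called higher it was in 25 of 174 windows (14.4%). It was also in 7 of 54 windows (13.0%) of those called lower, in 6 of 106 (5.7%) of those tested and not called, and in 48 of 740 (6.5%) of those with too few reads to test. These shares are a description of letters in a window, not of binding, and were not tested. Among tested LINC genes grouped by CpG content (observed over expected), the median log2 fold change was 0.71 in the class with least CpG, 0.38 in the middle class and 0.37 in the class with most (111, 111 and 112 genes). Both descriptions include LINC genes with enough reads to test only under siINTS11 (135 of the 785 tested, with or without a window). Those had to differ, so no link of these letters or of CpG with the rise is read from the values.

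LINC genes were mostly sparsely read, and shorter in the median than protein-coding genes. Reads were counted over the whole span from start to end, introns included. The median span was 17.8 kb (quartiles 5.80 and 55.6 kb), from 396 bases in LINC02079 to 1232.8 kb in LINC02055, against a median of 27.3 kb for protein-coding genes. Of the 1835 genes found by symbol in GENCODE 29, 1676 had the type lincRNA, 78 antisense and 44 processed transcript. Among the 1019 with the same coordinates there, exons covered a median of 11.8% of the span, and the transcript with most exons had a median of 3. Despite the word intergenic, 383 genes (18.2%) overlapped another listed gene on their own strand and 172 (8.17%) lay inside a gene on the other strand. A further 116 (5.51%) started within 1 kb of a gene pointing the other way, 258 (12.3%) started within 10 kb after the end of a gene on their strand, 6 were listed at more than 1 place, and 1169 (55.6%) were none of these.

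Depth was 20704611 to 38065726 counts per library. In all 12 libraries 325 LINC genes had 0 reads, 1010 had at least 1 read in every library, and 316 had a mean count of at least 100. Levels per length are given as RPKM over the span, CPM per kb, where CPM are counts scaled by TMM to a library of 1000000, averaged over the 6 siCtrl libraries. Among the 1010 genes the median level was 0.0357 RPKM, the quartiles 0.00687 and 0.190, and 76 of all LINC genes exceeded 1. Longer genes had lower levels (Spearman correlation -0.47, across genes, which are not independent replicates and whose level has the span in its denominator). Among osteoblast lineage markers, SPARC had 7.55 to 9.47 RPKM over the 12 libraries, COL1A1 4.12 to 6.45 and RUNX2 0.442 to 1.33, while SP7, IBSP, COL1A2 and POSTN had no more than 13 reads a library and BGLAP 0. The summed level of 5 epithelial markers was 0.181 to 0.250 under siCtrl and 0.256 to 0.323 under siINTS11, and of 3 endothelial markers 0.0571 to 0.0703 and 0.148 to 0.166. Of haematopoietic markers, CD3E had at most 1 read in any library, PTPRC and CD14 at most 7, and LAPTM5 from 7 to 219. Summed over these 4 haematopoietic markers the level was 0.0151 to 0.101 under siCtrl and 0.179 to 0.326 under siINTS11, and over these 8 osteoblast lineage markers and ALPL 14.4 to 17.3 and 12.3 to 13.4. All 4 sums thus moved with the siRNA without overlap, the osteoblast lineage sum down and the others up, and their part in the results was not tested.

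Under siINTS11 more LINC genes rose than fell. In U2OS-AsiSI 785 LINC genes had enough reads to test, and 412 (52.5%) were called higher and 168 (21.4%) lower by edgeR's quasi-likelihood test at a Benjamini-Hochberg adjusted p under 0.05. Of all 20441 genes tested, 35.4% were called higher and 32.6% lower. At least 2-fold, 211 LINC genes (26.9%) were higher and 40 (5.1%) lower, against 9.73% and 3.26% of all genes. The median log2 fold change of the LINC genes was 0.40 (quartiles -0.19 and 1.04), and that of all genes 0.03. Scaled by library totals without TMM, all genes had a median of 0.22 and LINC genes one of 0.59. LINC genes stood 0.37 above all genes on both scales. A change of scaling moves all genes nearly alike, so this distance could not change and is no check of the result.

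These counts were partly set by which genes reached the count filter. Of the 785 tested, 613 were over its cutoff of 0.364 CPM in the libraries of both siRNAs. Another 135 were over it only under siINTS11 and 18 only under siCtrl, so these had to differ and are no support for a direction. A choice that leaves the compared libraries out was therefore made with the siCtrl libraries of U2OS. Of the 641 tested genes with enough reads there, 302 (47.1%) were called higher and 167 (26.1%) lower, with a median of 0.25. With a mean count of at least 50 as the filter, 216 of 422 LINC genes were called higher and 127 lower, with a median of 0.26.

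Other non-coding genes were also called higher more often than lower, and protein-coding genes lower more often than higher. Of 92 tested genes with names ending in -DT, divergent transcripts of a neighbour, 57.6% were called higher and 13.0% lower (median 0.43). Of 650 genes with names ending in -AS and a number, which lie antisense to a gene, 58.5% were higher and 11.4% lower (median 0.40), and of 4227 known only by a clone name 48.4% and 18.5% (median 0.36). Of 13516 protein-coding genes, 28.7% were called higher and 39.6% lower (median -0.05). The median of LINC genes was thus close to that of the other non-coding classes. Rises of at least 2-fold made up 26.9% of LINC genes, 13.0% of -DT genes, 16.2% of -AS genes and 18.9% of clone-named genes, differences between classes that were not tested. All these classes passed the same filter, so each share can hold genes admitted only under siINTS11. Such genes were counted here for LINC genes alone. Of the 641 LINC genes chosen in U2OS, 117 (18.3%) rose at least 2-fold. The other classes were not chosen in this way, so this share cannot be set beside theirs. Whether the filter accounts for the larger LINC share was not tested.

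The largest rise among well-counted LINC genes was in LINC02863 (chr5:132419416-132426714, minus strand, 7.30 kb), which lies inside IRF1-AS1 on the other strand. It had 2.58, 3.20 and 3.62 CPM with siCtrl in U2OS-AsiSI and 22.4, 25.6 and 23.9 with siINTS11. That is a 7.68-fold rise (log2 fold change 2.94, SE 0.095, adjusted p = 8.78e-22), and every siINTS11 library was far above every siCtrl library. U2OS gave 2.26, 2.06 and 1.66 CPM under siCtrl and 17.8, 19.2 and 17.7 under siINTS11, an 8.94-fold rise (adjusted p = 5.89e-28). The surrounding IRF1-AS1 had too few reads to test in U2OS-AsiSI, with a mean of 0.0696 CPM under siCtrl and 0.0522 under siINTS11, and AC116366.2, which ends 42.2 kb upstream on the same strand, rose too (log2 fold change 1.12).

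LINC02541 (chr6:113616927-113650090, minus strand, 33.2 kb) was in none of the position classes given above. It rose 4.50-fold, from 1.09, 0.909 and 1.02 CPM under siCtrl to 4.61, 4.18 and 4.69 under siINTS11 (log2 fold change 2.17, SE 0.15, adjusted p = 1.16e-13). LINC01444 (chr18:14969001-14970468, minus strand, 1.47 kb) had 0.848, 0.971 and 0.987 CPM under siCtrl and 3.49, 3.96 and 4.31 under siINTS11 (log2 fold change 2.07, SE 0.16, adjusted p = 1.68e-12). It lies inside LINC01443 on the other strand, and LINC01443 rose as well (log2 fold change 2.47, adjusted p = 1.24e-11). Whether reads of such a pair were kept apart by strand is not given in the sources used here. LINC01444 and LINC02863, each wholly inside a gene on the other strand, had counted reads. The genes listed as overlapping a named LINC gene on its own strand had 0 CPM in all 4 groups. A count of 0 in such a gene is therefore not read as silence. LINC01484 (chr5:173707614-173746279, minus strand, 38.7 kb) went from 3.22, 4.26 and 4.53 CPM under siCtrl to 14.8, 16.4 and 18.2 under siINTS11 (log2 fold change 2.05, SE 0.10, adjusted p = 4.64e-17). The next LINC gene upstream of it, LINC01485, rose from a mean of 0.121 to 0.496 CPM (log2 fold change 1.97), on at most 15 reads a library in U2OS-AsiSI. For LINC02541, LINC01444 and LINC01484 the siRNA groups did not overlap in either line.

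LINC02657 (chr10:5594984-5632435, minus strand, 37.5 kb) starts 6.43 kb after the end of the protein-coding gene ASB13, and overlaps LINC02677 and LINC02678 on its strand, both without counted reads. It had 1.43, 1.47 and 1.46 CPM under siCtrl and 5.07, 6.52 and 5.27 under siINTS11 (log2 fold change 1.94, SE 0.14, adjusted p = 2.92e-13), while ASB13 had means of 17.0 and 17.6 CPM and was not called (adjusted p = 0.452). In U2OS both rose, LINC02657 by 2.50 and ASB13 by 0.42 on the log2 scale. LINC01524 is the longest of the named rises (chr20:52192159-52670578, plus strand, 478 kb). Its reads numbered 881, 1002 and 872 under siCtrl and 3066, 2384 and 3125 under siINTS11, or 29.9, 31.4 and 31.9 CPM under siCtrl and 107, 105 and 107 under siINTS11. With the most reads of the 6 it had the smallest error (log2 fold change 1.78, SE 0.049, adjusted p = 1.95e-23). The 3 genes printed for TGACTCA rose by less: LINC02725 by a log2 fold change of 1.65, LINC00601 by 1.42 and LINC02320 by 1.27 in U2OS-AsiSI, and by 1.71, 1.34 and 1.68 in U2OS. LINC00601 had 174, 226 and 198 reads under siCtrl and 503, 414 and 528 under siINTS11 in U2OS-AsiSI.

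The largest fall was in LINC01170 (chr5:124059794-124438625, minus strand, 379 kb), which overlaps the pseudogene HMGB1P29 on its strand, itself without counted reads. It had 23.6, 17.2 and 18.6 CPM under siCtrl and 2.83, 2.73 and 2.64 under siINTS11. The level under siINTS11 was 7.20 times lower (log2 fold change -2.85, SE 0.12, adjusted p = 3.38e-19), and U2OS gave the same log2 fold change of -2.85. LINC02749 (chr11:4179675-4202663, plus strand, 23.0 kb), which starts 40.7 kb after RRM1, had 7.33, 7.52 and 6.07 CPM under siCtrl and 2.06, 2.03 and 1.64 under siINTS11 (log2 fold change -1.87, SE 0.13, adjusted p = 1.16e-13). RRM1, which encodes the large subunit of ribonucleotide reductase, differed far less (log2 fold change -0.18). LINC01937 (chr2:238554541-238740849, plus strand, 186 kb) had 4.99, 4.89 and 4.57 CPM under siCtrl and 1.33, 1.32 and 1.51 under siINTS11 (log2 fold change -1.79, SE 0.14, adjusted p = 1.63e-12). The siINTS11 libraries were all below the siCtrl libraries in each.

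LINC02680 (chr10:27564430-27594588, plus strand, 30.2 kb) starts 22.2 kb after RAB18, which encodes a small GTPase. It had 14.0, 13.7 and 12.5 CPM under siCtrl and 4.40, 3.83 and 4.62 under siINTS11 (log2 fold change -1.63, SE 0.094, adjusted p = 1.14e-15), and RAB18 fell by 0.33 on the log2 scale. LINC00222 (chr6:108751654-108769942, plus strand, 18.3 kb) had 3.90, 3.13 and 3.47 CPM under siCtrl and 1.12, 1.19 and 1.27 under siINTS11 (log2 fold change -1.54, SE 0.16, adjusted p = 7.07e-10). LINC00639 (chr14:38738155-38948273, minus strand, 210.1 kb) had 3.53, 3.98 and 3.51 CPM under siCtrl and 1.36, 1.14 and 1.30 under siINTS11 (log2 fold change -1.52, SE 0.15, adjusted p = 3.95e-10). In U2OS these 3 fell by 1.42, 1.31 and 1.47 on the log2 scale, again without overlap. Among all LINC genes with a mean of at least 100 reads in the higher group, 151 rose and 123 fell in U2OS-AsiSI with no overlap between the siRNAs, and the named genes are the extremes of those. Groups without overlap were common. Over all tested genes 36.4% were apart with siINTS11 higher and 34.7% with it lower, and over all tested LINC genes 52.0% and 22.7%. These shares have no limit of 100 reads. The LINC shares hold the 135 genes that the filter admitted only under siINTS11 and the 18 only under siCtrl. Those had to differ, so the LINC shares are partly set by the filter.

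**Figure D1:**
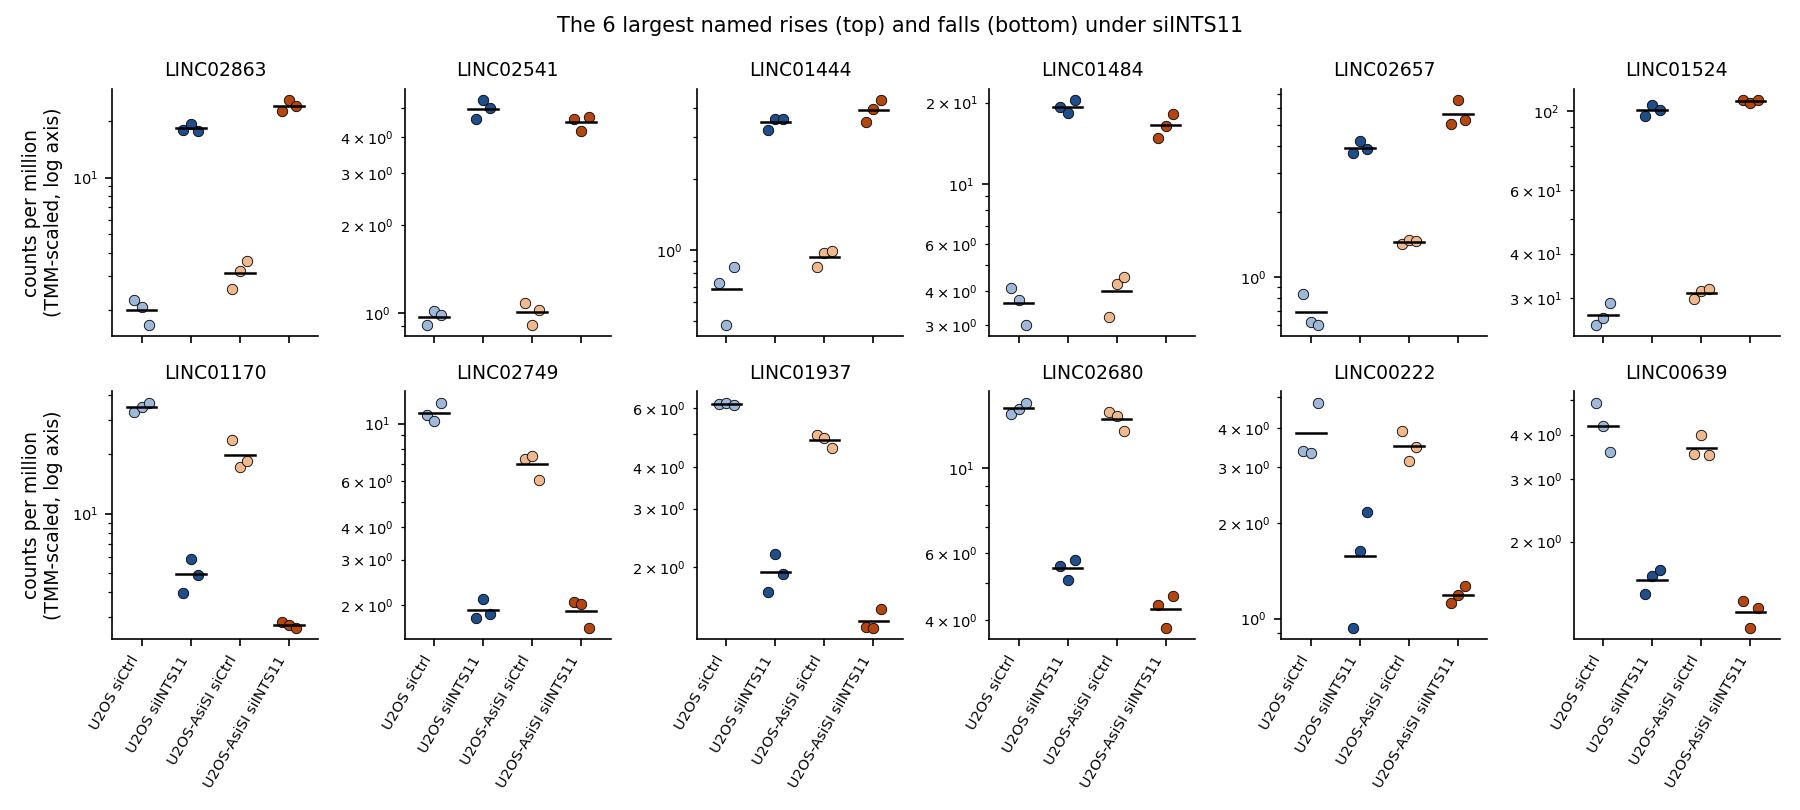
TMM-scaled CPM (log axis, with a scale of its own in each panel) of the 6 LINC genes with the largest named rises (top) and falls (bottom). Each point is a library, lines are means of 3 libraries. In every panel the siINTS11 libraries lie on the same side of the siCtrl libraries in both lines, without overlap.

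Span went with the size of the change. In U2OS-AsiSI the median log2 fold change was 0.52 for LINC genes under 5 kb (98 tested), 0.69 from 5 to 20 kb (186), 0.54 from 20 to 100 kb (265) and 0.03 over 100 kb (236). The share called higher was 59.2%, 61.8%, 56.2% and 38.1% in that order, and the share called lower 10.2%, 10.8%, 19.6% and 36.4%. Protein-coding genes of the same spans had medians of 0.22, 0.11, -0.08 and -0.29. LINC genes were thus above protein-coding genes in every span class, by a description that was not tested. These LINC classes hold the 135 genes that the filter admitted only under siINTS11 and that had to differ. The LINC medians by span were therefore partly set by the filter. Protein-coding genes passed the same filter, and those admitted only under siINTS11 are not counted here. The part of the filter in the distance between the kinds was thus not tested. Counts of such genes by span are given with the level classes below. Across genes, the Spearman correlation of span with log2 fold change was -0.23 for LINC and -0.37 for protein-coding genes. On library totals alone the LINC medians were 0.71, 0.88, 0.73 and 0.22. Because that scaling moves all genes nearly alike, the order of the classes could not change. The balance over 100 kb moved from 90 higher and 86 lower to 106 and 68.

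**Figure D2:**
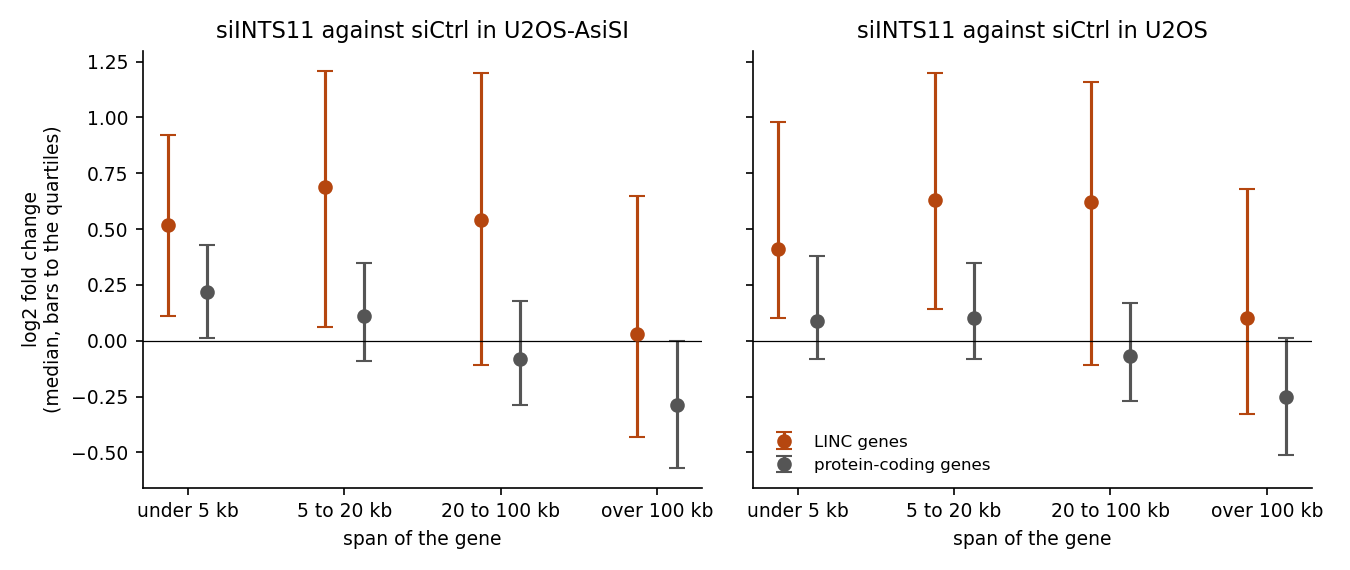
Median log2 fold change (points) and quartiles (bars) of tested genes by span, LINC and protein-coding genes side by side, in each line. LINC genes lie above protein-coding genes in all 4 classes, and both are lowest over 100 kb, where the LINC median is 0.03 in U2OS-AsiSI and 0.10 in U2OS. The LINC genes drawn include those that the filter admitted only under siINTS11.

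The level at which a LINC gene was transcribed in control cells went with its change. The tested genes were put in 3 level classes of equal size by the siCtrl libraries of U2OS, which the comparison in U2OS-AsiSI does not use, with limits at 0.0243 and 0.180 RPKM. In the lowest class 168 of 262 LINC genes (64.1%) were called higher and 22 (8.4%) lower, with a median of 0.85. In the middle class these were 53.6% and 19.5% (median 0.42), and in the highest class 39.7% and 36.3% (median 0.06). Of the lowest class, however, 94 genes were over the filter's cutoff only under siINTS11 and had to differ, against 36 in the middle class and 5 in the highest. With enough reads under siCtrl in U2OS required as well, 87 of 159, 112 of 223 and 103 of 259 were called higher, and 21, 51 and 95 lower. Protein-coding genes within the same limits had medians of 0.54, 0.11 and -0.09 (1177, 2110 and 10229 genes). Within the same limits, LINC and protein-coding genes were closer than over all levels, with 39.7% and 24.3% called higher in the highest class and 36.3% and 45.5% called lower. That class has no upper limit, and levels within it were not alike. Its median level was 0.587 RPKM for LINC and 1.33 for protein-coding genes, and its median span 14 and 34.7 kb. The Spearman correlation between level in U2OS and change in U2OS-AsiSI was -0.35 over the 785 LINC genes.

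Within the highest level class, span separated the LINC genes. Over 100 kb, 5 of 50 were called higher and 40 lower in U2OS-AsiSI, with a median of -0.43, and all 50 were over the filter's cutoff in the libraries of both siRNAs. Genes up to 20 kb had 80 of 151 higher and 28 lower (median 0.33), with 5 admitted only through siINTS11. Within the lowest class, genes over 100 kb had 64 of 127 higher and 17 lower, with 18 admitted only through siINTS11. The 28 genes of that class up to 20 kb had 24 higher and 0 lower, but 25 of the 28 were admitted only through siINTS11, so this count was fixed by the filter and nothing is read from it. U2OS, with level classes set in the siCtrl libraries of U2OS-AsiSI, gave 7 of 48 higher and 37 lower for the highest class over 100 kb. Its short genes of the lowest class were again set by the filter, with 26 of 28 admitted only through siINTS11.

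**Figure D3:**
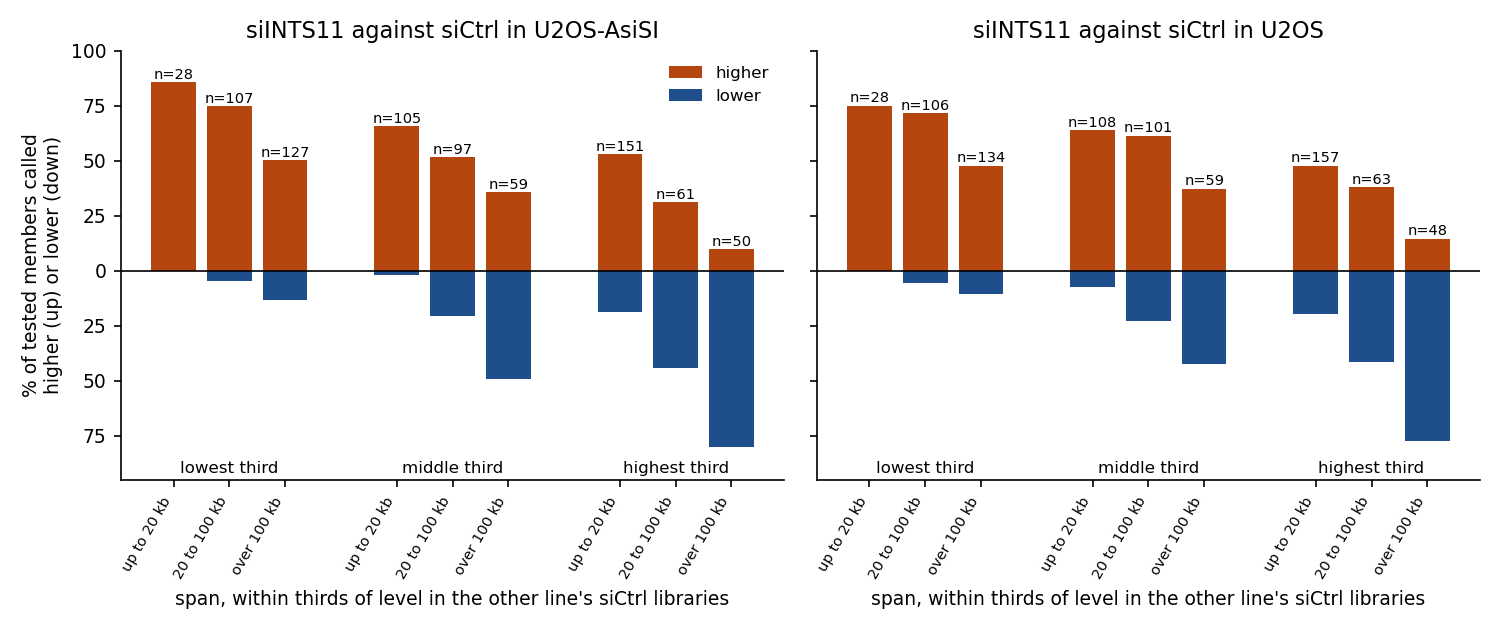
Percentage of tested LINC genes called higher (upward bars) and lower (downward bars) under siINTS11, by span within 3 level classes set in the siCtrl libraries of the other line, with n the number tested. In the highest class of U2OS-AsiSI, genes over 100 kb have 10.0% called higher and 80.0% lower. The bar for short genes of the lowest class (85.7% in U2OS-AsiSI) rests on genes that the filter admitted almost wholly through siINTS11.

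The 6 LINC genes with the highest levels per kb did not share a direction. LINC00958 (chr11:12961541-12989597, minus strand, 28.1 kb), a lncRNA reported in bladder and other tumours, was highest with 7.86 RPKM over the 6 siCtrl libraries and 0.244 reads per base on average over all 12. It had 229, 230.3 and 243 CPM under siCtrl and 249, 280.4 and 246 under siINTS11 in U2OS-AsiSI (log2 fold change 0.14, adjusted p = 0.0106), and this call was lost without siCtrl replicate 2 (adjusted p = 0.0559) or siINTS11 replicate 2 (0.177) of that line. LINC01638 (chr22:27221349-27225134, minus strand, 3.79 kb, 7.62 RPKM) fell from 25.7, 26.0 and 26.6 CPM under siCtrl to 17.6, 14.5 and 17.2 under siINTS11 (log2 fold change -0.66, SE 0.066, adjusted p = 4.08e-10). LINC00641 (chr14:21200079-21206900, minus strand, 6.82 kb, 6.57 RPKM) starts 2.24 kb after HNRNPC, the gene of a nuclear RNA-binding protein. It fell by 0.39 on the log2 scale (adjusted p = 7.15e-08), while HNRNPC had means of 414 and 408 CPM and was not called (adjusted p = 0.754).

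LINC01711 (chr20:58634772-58635738, plus strand, 0.967 kb, 6.12 RPKM) is the shortest of these and rose, from 5.87, 6.36 and 5.88 CPM under siCtrl to 9.57, 10.96 and 9.38 under siINTS11 (log2 fold change 0.72, SE 0.092, adjusted p = 5.15e-08). The gene upstream of it, APCDD1L-DT, ends 14.9 kb away and rose by 0.51 on the log2 scale. LINC01029 (6.05 RPKM) and LINC02832 (5.62 RPKM) differed little between the siRNAs, by -0.04 and -0.19 in U2OS-AsiSI, where LINC01029 was not called, and by -0.15 and -0.13 in U2OS on the log2 scale. On library totals alone their signs turned in both lines (0.15 and 0.00, and 0.05 and 0.07). The gene pointing away from LINC02832 586 bases from its start, AC009502.1, rose by 1.95 on the log2 scale, from a mean of 0.246 to 0.974 CPM.

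Long LINC genes differed among themselves. LINC02055, the longest at 1232.8 kb on chromosome 8, took the most reads of any LINC gene, 24578, 23307 and 22180 under siCtrl and 20391, 14709 and 18357 under siINTS11 in U2OS-AsiSI. Scaled, it had 834, 730.2 and 811 CPM under siCtrl and 712, 648 and 629 under siINTS11 (log2 fold change -0.25, adjusted p = 1.06e-04). On library totals it was -0.06 and not called, and in U2OS it turned from -0.13 to 0.07, so its direction depends on the scaling. The call in U2OS was also lost without siCtrl replicate 3 (adjusted p = 0.0936) or siINTS11 replicate 2 (0.0688) of that line. LINC01505 (748 kb, listed at more than 1 place) fell from 198, 205 and 191 CPM under siCtrl to 133, 132 and 129 under siINTS11 (log2 fold change -0.59, SE 0.045, adjusted p = 7.98e-13). LINC00882 (chr3:106449775-107240671, 791 kb) and LINC00276 (chr2:13710531-14400963, 690.4 kb) were read at under 0.01 RPKM. LINC00882 had 7.43, 6.67 and 6.25 CPM under siCtrl and 6.71, 6.87 and 7.29 under siINTS11 and LINC00276 had 4.24, 4.10 and 4.13 CPM under siCtrl and 5.38, 4.80 and 3.70 under siINTS11. Both pairs of ranges overlapped, and neither gene was called (adjusted p = 0.718 and 0.274). On library totals both were called higher (0.23 and 0.34), and LINC00276 also without siINTS11 replicate 3 (0.30, adjusted p = 0.0390). Long LINC genes thus did not all fall: the largest named fall, LINC01170, and the rise LINC01524 are 379 and 478 kb long.

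Position beside other genes went with the change. LINC genes inside a gene on the other strand had a median log2 fold change of 0.73 (32 tested) and those divergent from a gene start 0.55 (61). Those in none of the position classes had a median of 0.53 (392). This remainder can still hold genes that partly overlap a gene on the other strand or lie close to one. Those starting within 10 kb after a gene on their strand had a median of 0.30 (112) and those overlapping a gene on their strand 0.15 (187). The classes were formed from all tested LINC genes, with the 135 that the filter admitted only under siINTS11. For 74 LINC genes in the downstream class the gene that ends upstream was also tested. The LINC gene and that gene had the same sign in 56 cases (75.7%), with a Spearman correlation of 0.60 across pairs, and where both were called, 37 of 45 went the same way (18 both higher, 19 both lower). U2OS gave 75.3% of 77 pairs and a correlation of 0.58. The same arrangement was not counted for other genes. Adjacent protein-coding genes on the same strand, at most 50 kb apart, had the same sign in 59.9% of 3843 pairs in U2OS-AsiSI. Where both of those were called, 1145 of 1703 pairs went the same way, so part of such agreement is general. Reads that run past the end of a gene would be counted in a LINC gene lying there, and their part in this was not tested.

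Among divergent pairs the gene on the other side did not always move with its LINC partner. Of 44 pairs tested in U2OS-AsiSI, 28 (63.6%) had the same sign (Spearman correlation 0.54), 12 were both higher, 0 both lower, and in 8 the LINC gene was higher and its partner lower. The LINC genes of these pairs had a median of 0.62 and their partners 0.06. In U2OS 31 of 45 (68.9%) had the same sign, with 16 both higher, 1 both lower and 4 LINC genes higher with a lower partner. Divergent pairs of other genes were not counted. Adjacent LINC genes on the same strand, at most 50 kb apart and not overlapping, numbered 23 pairs in U2OS-AsiSI and 17 had the same sign (73.9%), against 59.9% of 3843 such pairs of protein-coding genes. In U2OS the shares were 62.5% of 24 and 57.4% of 3859. Pairs on opposite strands had the same sign in 75% of 16 in U2OS-AsiSI and 73.3% of 15 in U2OS, against 55.1% and 53.3% for protein-coding genes, so the share was no higher on the same strand. The pairs share their place in the genome, and the shares were not tested against each other. LINC genes leaned to a rise more strongly (52.5% higher, 21.4% lower) than protein-coding genes leaned to a fall (28.7% and 39.6%). Unrelated LINC genes would thus also share a sign more often. Genes admitted only under siINTS11 can be among the pairs too. No agreement between neighbours is therefore read from the distance to protein-coding pairs.

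LINC genes known from published work on tumours included some that rose and some that fell. Of 20 listed for such work 14 were analysed here and 10 were tested in U2OS-AsiSI. Of these, 5 were called higher, 2 lower and 3 neither, with a median of 0.23. In U2OS 5 of 9 were higher and 2 lower (median 0.18). Over all tested LINC genes 52.5% were higher and 21.4% lower in U2OS-AsiSI and 52.2% and 21.1% in U2OS, and over all genes 35.4% and 32.6%, and 34.5% and 32.4%, so the counts were near those of LINC genes in general and are no result about this list. Both falls were in the genes with the most reads. LINC00662 (chr19:27681072-27794005, minus strand, 113 kb) had 323, 329 and 316 CPM under siCtrl and 218, 212 and 215 under siINTS11 (log2 fold change -0.58, SE 0.044, adjusted p = 7.41e-13). LINC00511 (chr17:72290091-72640472, minus strand, 350.4 kb), which starts 5.48 kb after the zinc transporter gene SLC39A11, had 339.9, 347 and 319 CPM under siCtrl and 247, 250.4 and 256 under siINTS11 (log2 fold change -0.41, SE 0.046, adjusted p = 2.91e-09). SLC39A11 fell with it (log2 fold change -0.26). Both also fell in U2OS, by 0.68 and 0.49 on the log2 scale.

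LINC00460 (chr13:106374477-106384315, plus strand, 9.84 kb) rose 2.02-fold, from 9.40, 8.30 and 11.1 CPM under siCtrl to 19.7, 19.1 and 18.9 under siINTS11 (log2 fold change 1.01, SE 0.081, adjusted p = 2.56e-12). LINC00963 (chr9:129476946-129513687, plus strand, 36.7 kb) rose from 90.2, 91.5 and 92.8 CPM under siCtrl to 117, 124 and 122 under siINTS11 (log2 fold change 0.41). LINC00467 (chr1:211382736-211435570, plus strand, 52.8 kb) had 14.3, 15.7 and 15.3 CPM under siCtrl and 17.5, 16.6 and 17.8 under siINTS11, a log2 fold change of 0.21 (adjusted p = 0.00848, 0.0566 with DESeq2), and 0.22 in U2OS, where the call was lost without replicate 2 of either siRNA (0.0718 and 0.105). TRAF5, a signalling adaptor gene that ends 7.79 kb upstream of it, fell by 0.39. LINC01116 (chr2:176629572-176637931, minus strand, 8.36 kb) lies inside LINC01117 on the other strand, which rose by 0.76 on the log2 scale. LINC01116 had 9.74, 9.27 and 11.3 CPM under siCtrl and 11.7, 11.6 and 11.3 under siINTS11 (log2 fold change 0.20, adjusted p = 0.0319). That call was lost with DESeq2 (0.133) and without any of the libraries except siCtrl replicate 3 of that line, with values from 0.0564 to 0.188. In U2OS LINC01116 rose by 0.50 (adjusted p = 4.14e-06).

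LINC00665 (chr19:36313067-36331770, minus strand, 18.7 kb) starts 2.68 kb after ZFP14, a zinc finger gene that fell by 0.91 on the log2 scale. LINC00665 itself had 19.95, 21.1 and 20.1 CPM under siCtrl and 19.5, 20.2 and 20.7 under siINTS11, ranges that overlapped, and was not called (log2 fold change -0.01, adjusted p = 0.840). On library totals its sign turned (0.18). In U2OS it was called higher at 0.18, a call lost with DESeq2 (0.0662) and without siINTS11 replicate 2 (0.153). LINC00461 (chr5:88507546-88691057, minus strand, 184 kb) spans MIR9-2, a precursor gene of the neural microRNA miR-9. It had 2.78, 3.07 and 3.22 CPM under siCtrl and 2.93, 4.27 and 3.63 under siINTS11 and was not called in either line (adjusted p = 0.112 and 0.405). It was called higher on library totals (0.44 and 0.32) and, in U2OS-AsiSI, without siINTS11 replicate 1 (0.38, adjusted p = 0.0198). LINC00941 was called higher in U2OS-AsiSI on at most 30 reads a library (log2 fold change 1.36). LINC00261, on at most 22 reads, was tested and not called, LINC01133 and LINC00707 had at most 7 reads, and LINC00339 and LINC00472 had 0 reads in all 12 libraries. A list of 6 LINC genes later found to encode small proteins was not analysed here.

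Without the nuclease, in U2OS, LINC genes again rose more often than they fell. Of 804 LINC genes tested, 420 (52.2%) were called higher and 170 (21.1%) lower under siINTS11, against 34.5% and 32.4% of all 20687 genes. At least 2-fold, 213 were higher and 37 lower, against 9.62% and 3.24% of all genes. The median was 0.42, and that of all genes 0.02 (0.62 and 0.22 on library totals). Of the 804, 147 had passed the filter only through the siINTS11 libraries. Of the 654 tested genes that had enough reads in U2OS-AsiSI under siCtrl, 317 (48.5%) were higher and 165 (25.2%) lower, with a median of 0.29. The medians by span were 0.41, 0.63, 0.62 and 0.10, and those by level class, from lowest to highest, 0.78, 0.57 and 0.11. These classes hold the 147 genes, with 100, 45 and 2 of them in the level classes. With enough reads under siCtrl in U2OS-AsiSI required as well, the medians by level class were 0.53, 0.44 and 0.11.

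The comparisons in the 2 lines share no libraries. Of 761 LINC genes tested in both, 490 were called in both, 346 higher in both, 144 lower in both and 0 in opposite directions. The 346 were 88.3% of the rises in U2OS-AsiSI and 87.8% of those in U2OS, and the 144 were 86.2% and 86.7% of the falls. Over all genes the shares were 81.4% and 82.7% of rises and 84.5% and 84.8% of falls, and the difference from LINC genes was not tested. Pearson's r between the log2 fold changes was 0.93 across LINC genes, with the same sign in 91.9%, and 0.92 and 86.9% over all 20121 genes tested in both, of which 60 were called in opposite directions. These are descriptions across genes, which are not independent replicates. The 761 include LINC genes that the filter admitted only under siINTS11 (135 of those tested in U2OS-AsiSI and 147 in U2OS). Genes admitted so in both lines had to be higher in both. Their number was not counted here, and the agreement between the lines is partly set by the filter.

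**Figure D4:**
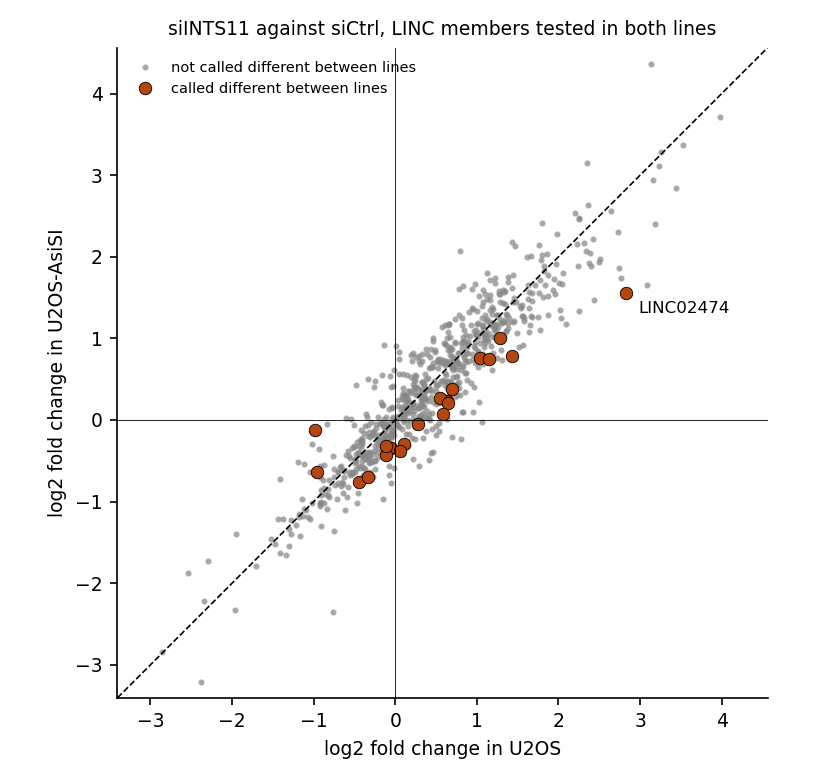
Log2 fold change under siINTS11 in U2OS-AsiSI against that in U2OS for the 761 LINC genes tested in both lines. The dashed line marks equal change. Larger points are LINC genes called different between the lines, most of them below the dashed line, with LINC02474 farthest from it among the named. Some outer points rest on a group with at most 3 reads in every library. The LINC genes drawn include those that the filter admitted only under siINTS11.

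The size of the response differed between the lines for few LINC genes. The interaction of siRNA and line, fitted over all 12 libraries, was called for 20 of 869 LINC genes. In 2 (0.2%) the log2 fold change was higher in U2OS-AsiSI and in 18 (2.1%) it was lower, against 0.762% and 3.1% of all 21521 genes. Without a single library these counts ran from 0 to 3 and from 7 to 21, and the second was down to 7 to 11 without U2OS siCtrl replicate 3, U2OS siINTS11 replicate 1 or 3, or U2OS-AsiSI siINTS11 replicate 2 or 3. With DESeq2 they were 1 and 8. The genes higher were LINC00698 and LINC00342, with differences of 0.83 and 0.29. LINC02474 (chr1:221966341-221984964, plus strand, 18.6 kb) differed most. It had 1.82, 1.498 and 1.62 CPM under siCtrl and 11.9, 13.2 and 10.5 under siINTS11 in U2OS, and 1.49, 1.38 and 1.72 and 4.26, 4.89 and 4.38 in U2OS-AsiSI. All siINTS11 libraries were above the siCtrl libraries, but the rise was 7.10-fold in U2OS and 2.95-fold in U2OS-AsiSI (difference of log2 fold changes -1.30, SE 0.21, adjusted p = 4.76e-04). LINC01705, 25.9 kb from it on the other strand, rose in both lines (0.65 and 0.48).

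LINC01173 (chr2:234682668-234717764, plus strand, 35.1 kb) had 24.95, 25.7 and 27.8 CPM under siCtrl and 39.3, 44.1 and 41.7 under siINTS11 in U2OS and 32.8, 30.4 and 31.7 and 37.8, 34.96 and 36.5 in U2OS-AsiSI (difference -0.47, adjusted p = 6.65e-04). Its control level was higher in U2OS-AsiSI and its siINTS11 level lower than in U2OS. LINC01151, on chromosome 8 and 249 kb long, rose 2.22-fold in U2OS and 1.68-fold in U2OS-AsiSI (difference -0.44, adjusted p = 9.73e-04). LINC00578 (chr3:177441910-177767379, plus strand, 325 kb) rose 1.55-fold and 1.17-fold (difference -0.44, adjusted p = 0.00107). In each of the 3 the siINTS11 libraries were above the siCtrl libraries in both lines.

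Between the lines under siCtrl, smaller shares of LINC genes than of all genes were called. Of 713 tested, 62 (8.7%) were called higher in U2OS-AsiSI and 107 (15%) lower, against 17.8% and 17.2% of all 19935 genes. On library totals the split was 79 higher and 78 lower, and with DESeq2 38 and 77. Of the LINC genes over 100 kb 18 (7.8%) were higher and 60 (26%) lower (231 tested), a lean that on library totals was 21 and 43. Of 3222 protein-coding genes over 100 kb, 6.2% were higher and 42.4% lower, so this lean was not particular to LINC genes. LINC02085 (chr3:101940859-101997926, plus strand, 57.1 kb) was higher in U2OS-AsiSI, with 4.63, 4.78 and 5.71 CPM in U2OS and 9.50, 8.37 and 10.9 in U2OS-AsiSI (log2 fold change 0.93, SE 0.11, adjusted p = 3.84e-08). LINC01411 (0.44) and LINC01357 (0.39) were also higher. Lower were LINC01170, with 32.7, 34.7 and 36.5 and 23.6, 17.2 and 18.6 CPM (log2 fold change -0.81), LINC02615 (-0.62) and LINC01422 (-0.52). None of these 6 overlapped between the lines. Under siINTS11 they went different ways, though the comparison of the lines shares siCtrl libraries with both siINTS11 comparisons. LINC02085 rose in both lines (1.28 in U2OS-AsiSI and 1.66 in U2OS), as did LINC01357 (0.48 and 0.57), LINC02615 and LINC01411 fell (-0.92 and -0.83, and -0.42 and -0.33), and LINC01422 was not called.

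Counted together, LINC genes gave a different picture from the count of genes. Their share of all counted reads was 1.16%, 1.18% and 1.19% under siCtrl and 1.22%, 1.22% and 1.23% under siINTS11 in U2OS-AsiSI. In U2OS it was 1.17%, 1.18% and 1.15%, and 1.23%, 1.22% and 1.23%. The siRNA groups did not overlap in either line (exact permutation test, two-sided, p = 0.1, the smallest that 3 against 3 libraries allow). On the TMM scale the sum went the other way, from 12288 ± 66.9 to 11152 ± 158 CPM in U2OS-AsiSI and from 12712 ± 123 to 11893 ± 197 in U2OS (SD, n = 3; exact p = 0.1 in both lines), so the direction of the total depends on the scaling. The 10 LINC genes with the most reads held 32.1% ± 0.288 of LINC reads under siCtrl and 28.8% ± 0.657 under siINTS11 in U2OS-AsiSI, and 31.3% ± 0.182 and 28.2% ± 0.546 in U2OS. That share was lower in every siINTS11 library than in every siCtrl library of its line (exact permutation test, two-sided, p = 0.1). The number of LINC genes with a read was 1316 ± 16.8 and 1371 ± 42.3 in U2OS-AsiSI, with overlap, and 1338 ± 27.2 and 1410 ± 5.29 in U2OS, and it also depends on depth. In bulk libraries a lower level in each cell and fewer cells making an RNA cannot be told apart.

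**Figure D5:**
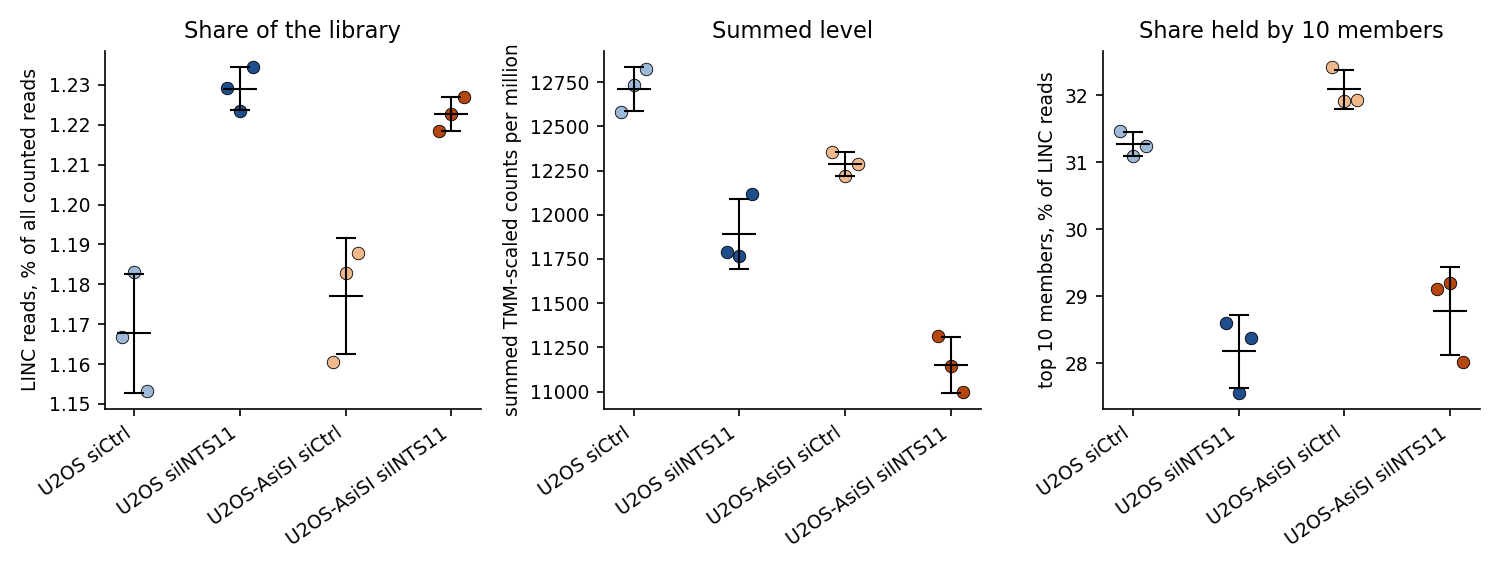
LINC genes as a whole in each library: their percentage of all counted reads (left), their summed TMM-scaled CPM (middle) and the percentage of LINC reads in the 10 LINC genes with most reads (right). Points are libraries, bars the mean and SD of 3, and the axes do not start at 0. The left panel rises under siINTS11 from about 1.17% to 1.23% in U2OS while the middle panel falls from 12712 to 11893.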

How the data were processed

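TT-seq libraries of 12 samples (4 groups of 3, grouped and numbered by their titles) were analysed from 6 deposited tables of raw counts, whole numbers per gene, with each gene's coordinates and strand in the layout of featureCounts, per the file headers. The submitters' processing notes name Trimmomatic 0.36, STAR 2.7, deepTools, featureCounts and the build hg38. The strand setting and the rule for overlapping genes are not given in the sources used here. Genes listed as overlapping a named LINC gene on its strand had 0 CPM in all 4 groups, so 0 reads in an overlapping gene is not read as silence. The length in the tables equals the span, so introns are counted. 0 count columns were left without a sample. Yeast spike-in RNA, added per the labels' protocols, was not used here. Some marker genes of the lists are not reported here.

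The test was edgeR 4.0.16 under R 4.3.3 (filterByExpr with a minimum count of 10, TMM, glmQLFit and glmQLFTest with robust estimation, two-sided) on the 6 libraries compared, or all 12 for the difference between lines. The Benjamini-Hochberg adjustment covers all genes tested, with a threshold of 0.05. Each SE was taken as the log2 fold change without its sign, divided by the root of the F statistic. Levels per library are CPM on a TMM scale over 12 libraries. LINC classes are described by counts and medians beside all genes. The members, lists and classes were chosen with earlier results of these data known.

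Depth was 20704611 to 38065726 counts, and replicates differed by more than sampling (chi-square per degree of freedom 2.19 to 3.27). With no molecular identifiers, reads do not each stand for a molecule. Data were simulated with a small part of all genes changed, in either direction, 72 of them 2-fold in the U2OS-AsiSI design. Far more genes were called in the real siINTS11 comparisons, and LINC genes were not simulated apart. The shares below therefore hold for that setting only and were not measured for LINC genes. On simulated data 95.8% of 2-fold genes were recovered in the U2OS-AsiSI design (20153 genes, 6.8% of calls false), 93% in U2OS (20422 genes, 2.8%), 79.7% for the difference between lines (21009 genes, 2.5%) and 88.7% for the siCtrl comparison (19657 genes, 3.5%).

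Named LINC genes are the 6 largest rises and 6 largest falls in U2OS-AsiSI (called, mean count at least 100 in the higher group, no overlap), the 6 highest per kb, the 4 longest tested with a mean count of at least 100, the 4 smallest p for the line difference, 3 each way between lines under siCtrl, and up to 8 of a list of 20 published genes. The promoters of 3 LINC genes were added for their letters, and other LINC genes and neighbours are named beside these. Alternative settings were DESeq2 1.42.0, a replicate block, size factors by median of ratios or from library totals only, dropping the count filter or asking for a mean of 50 reads, leaving out single libraries, LINC genes without overlap on their strand and those under 0.1 reads per base. Figures were drawn with matplotlib 3.10.9.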

Additional observations from a re-analysis of the deposited data

Results flagged for a closer look

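The siINTS11 effect in U2OS-AsiSI minus that in U2OS passed the test of the interaction for 20 LINC genes (edgeR, Benjamini-Hochberg adjusted p over all genes), in 18 with a difference below 0. Of the 869 LINC genes tested, 0.2% were above 0 and 2.1% below, against 0.762% and 3.1% of all 21521 genes. The lean below 0 was thus general and is no result about LINC genes. The 4 with the smallest adjusted p had these differences: -1.30 in LINC02474 (adjusted p = 4.76e-04), -0.47 in LINC01173 (adjusted p = 6.65e-04), -0.44 in LINC01151 (adjusted p = 9.73e-04) and -0.44 in LINC00578 (adjusted p = 0.00107), all on the log2 scale. In these 4 every siINTS11 library lay above every siCtrl library in both lines, and the rise was larger in U2OS. The lines also differ in OHT and the nuclease, which cannot be told apart here.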

How the results depend on the processing

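In U2OS-AsiSI and U2OS more LINC genes were called higher than lower under every alternative run. Values under the alternatives that moved them follow, and the cause was not tested beyond the fewer genes some alternatives hold. With a mean count of at least 50, 216 and 233 were called higher in U2OS-AsiSI and U2OS, with medians of 0.26 and 0.25. Between lines that filter gave 7 higher, 10 lower and a median difference of -0.01. On library totals the medians were 0.59 and 0.62, -0.05 for the line difference and 0.03 under siCtrl. Without LINC genes overlapping on their strand, 110 fell in U2OS-AsiSI, 9 were lower in the line difference, 66 were lower under siCtrl, and the medians were 0.49 and 0.52. Without a count filter the U2OS median was 0.46, the line difference had 5 higher and a median of -0.02. Median-of-ratios size factors gave 0.40 in U2OS and -0.05 for the line difference. DESeq2 gave 1 higher, 8 lower and -0.05 for the line difference and 38 higher under siCtrl.

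Leaving out each library gave 377 to 424 higher and 155 to 169 lower in U2OS-AsiSI (medians 0.37 to 0.46), 399 to 433 and 155 to 169 in U2OS (0.42 to 0.45), 0 to 3 and 7 to 21 for the line difference (-0.09 to 0), and 43 to 64 and 78 to 102 under siCtrl (-0.05 to 0). On library totals signs turned for LINC01029 (0.15), LINC02832 (0.00) and LINC00665 (0.18) in U2OS-AsiSI and for LINC01029 (0.05), LINC02832 (0.07) and LINC02055 (0.07) in U2OS. Over the 78 values of named genes, 928 of 959 alternative values kept direction and side of the threshold, 18 lost the call, 7 gained it and 6 turned.

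Replicate numbers did not pair the libraries: deviations of same-numbered libraries correlated at -0.108 to 0.137, over 0.1 in 1 of 18 pairs. With the replicate block, 417 and 169 LINC genes were called higher and lower in U2OS-AsiSI, 413 and 168 in U2OS, 57 and 101 under siCtrl, and 1 and 15 for the line difference. Most LINC genes, 1319 of 2104 in U2OS-AsiSI, had too few reads to test.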
